A study of Homo sapiens with 4 samples.

Results

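Cholesterol that a cell does not keep as free sterol is pumped out, moved between membranes or stored as ester, and 10 genes of these steps were followed in human glioma cells. They were taken by name from the whole-series table, which held every one of them as a single probe set (10 of 19555 named genes): ABCA1 and ABCG1 (efflux pumps), APOE (an acceptor of the exported lipid), NR1H3 and NR1H2 (the nuclear receptors LXRα and LXRβ), MYLIP (a ubiquitin ligase for lipoprotein receptors), NPC1 and NPC2 (lysosomal export), SOAT1 (esterification) and CH25H (an oxysterol enzyme). RNA of U87MG, an established line of malignant glioma cells, was hybridised to Affymetrix whole-transcript arrays for 4 samples. Of these, 2 came from a clone carrying wild-type APN (CD13, membrane alanyl-aminopeptidase, the product of ANPEP) and 2 from a clone carrying the L243P form of it, described by the submitters as inactive, both in constructs named with EGFP. No treatment or age is given, and growth is called comparable between the genotypes. Each genotype is 1 clone, so clone and genotype cannot be told apart, and the 2 replicates of a genotype are separate experiments.

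As background, cells keep free cholesterol within narrow limits by balancing synthesis and uptake, driven by the transcription factors SREBF1 and SREBF2, against export and storage. When sterol is plentiful, oxysterols bind the LXR receptors, which pair with RXR and raise ABCA1, ABCG1, APOE, MYLIP and NR1H3 itself. Cholesterol from lipoproteins leaves the lysosome through NPC2 and NPC1, and SOAT1 converts an excess into esters that are stored in droplets. In brain, astrocytes supply cholesterol to neurons on APOE-containing particles loaded by ABCA1. The intronic microRNA of SREBF2, miR-33a, is known to repress ABCA1 and NPC1.

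The promoters of ABCA1, SOAT1 and NPC1 are shown because ABCA1 carries the element through which LXR acts, whereas SOAT1 and NPC1 were brighter in both L243P samples than in both wild-type samples. Each window holds 250 bases before and 50 after the annotated start, read 5′ to 3′ on the gene's strand from RefSeq, and capitals mark motif matches.
ABCA1, GRCh38.p14 chr9:104928106-104928405, minus strand: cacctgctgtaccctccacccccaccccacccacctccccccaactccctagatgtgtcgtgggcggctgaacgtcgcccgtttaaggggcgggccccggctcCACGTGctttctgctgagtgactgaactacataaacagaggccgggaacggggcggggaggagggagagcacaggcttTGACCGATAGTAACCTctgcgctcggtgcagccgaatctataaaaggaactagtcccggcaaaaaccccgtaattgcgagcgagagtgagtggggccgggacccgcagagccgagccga
SOAT1, GRCh38.p14 chr1:179293547-179293846, plus strand: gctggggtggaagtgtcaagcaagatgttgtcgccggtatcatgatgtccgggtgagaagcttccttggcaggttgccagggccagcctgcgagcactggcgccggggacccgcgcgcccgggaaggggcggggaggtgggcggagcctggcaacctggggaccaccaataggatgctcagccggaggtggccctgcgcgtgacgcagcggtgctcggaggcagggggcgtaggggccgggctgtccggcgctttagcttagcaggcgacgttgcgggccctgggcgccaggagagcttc
NPC1, GRCh38.p14 chr18:23586457-23586756, minus strand: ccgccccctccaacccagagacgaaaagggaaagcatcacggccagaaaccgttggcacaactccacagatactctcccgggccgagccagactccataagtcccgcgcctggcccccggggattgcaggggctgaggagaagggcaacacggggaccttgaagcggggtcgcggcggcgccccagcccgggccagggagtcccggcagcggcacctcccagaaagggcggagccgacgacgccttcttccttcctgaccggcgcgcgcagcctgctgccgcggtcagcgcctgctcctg
Of the 10 genes, 9 had at least 1 window in that table. The capitals in ABCA1 are, from left to right, an E-box (CACGTG, searched without mismatch) and, from 69 to 54 bases before the start, a match on the opposite strand to the LXR element DR4 (the half-site AGGTCA repeated in the same direction after a spacer of 4 bases, with at most 2 mismatches over the 12 fixed letters, both strands searched). The 2 matches do not overlap. Of all 35116 windows, 2.34% held such a DR4 match and 7.26% an E-box on either strand. The sterol regulatory element (TCACNCCAC, no mismatch, both strands) was matched in 1.13% of all windows and in none of the 9 genes, while a longer form of it, searched first with 1 mismatch allowed and found in 1.7% of the windows, was matched in 1 window of APOE. The letters of no searched motif were found in the SOAT1 and NPC1 windows. NR1H3 and NPC2, also brighter in both L243P samples, are not shown, and their windows held no match either. Of the 9 genes, ABCA1 alone held a DR4 match. The microRNA that lies in SREBF2 is given with its seed (bases 2 to 8) in capitals, because ABCA1 and NPC1 are among its known targets. Its own level was not analysed here.
hsa-miR-33a-5p: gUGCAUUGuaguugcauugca

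The single comparison, L243P against wild type, asked which transcripts differ with functional APN. Values are RMA-normalized intensities on a linear scale, with the mean ± SD (n = 2 per group), and a change is the log2 ratio of L243P to wild type, followed by its standard error (SE) from limma, fitted over all rows. A gene was called at an adjusted p (Benjamini-Hochberg over all rows) under 0.05. Array medians lay between 46 and 50, and correlations of log2 intensity were 0.993 and 0.995 within the groups and between 0.990 and 0.991 across them. The call rule was met by 189 of 19555 genes (0.967%), 84 of them higher (0.430%) and 105 lower (0.537%) in L243P. ANPEP, whose probe set does not separate the construct from the cell's own gene, was at 8447 and 9103 with wild type against 6439 and 7122 with L243P (log2 change -0.37, SE 0.085, limma adjusted p = 0.16). Of 3 glioma line markers, VIM and CD44 were bright in all samples, and NES was at 62 and 74 with wild type against 104 and 112 with L243P (log2 change 0.67, limma adjusted p = 0.12). Means were below the median intensity of the arrays for 4 of 6 measured astrocyte markers and 8 of 10 macrophage and microglia markers. The latter 10 summed to 327 and 316 with wild type and to 288 and 310 with L243P. In an RNA extract of many cells, fewer cells of a type and less RNA per cell cannot be told apart.

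SOAT1, NR1H3, NPC1 and NPC2 were brighter in both L243P samples than in both wild-type samples, by 1.19-fold to 1.51-fold, while CH25H was dimmer. ABCG1, APOE, NR1H2 and MYLIP had log2 changes between -0.04 and 0.02, and ABCA1 was low in a single wild-type sample. None of the 10 was called (limma, 0 of 10 against 0.967% of all genes), and the smallest adjusted p was 0.089, for SOAT1. Without adjustment, 5 of the 10 had p under 0.05, against 13.5% of all genes. The groups did not overlap for 5 of the 10 (4 higher and 1 lower), against 38.0% of all genes in either direction (17.0% higher, 20.9% lower). With 2 samples against 2, an exact two-sided permutation test of a single gene cannot go below p = 0.333.

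**Figure D1:**
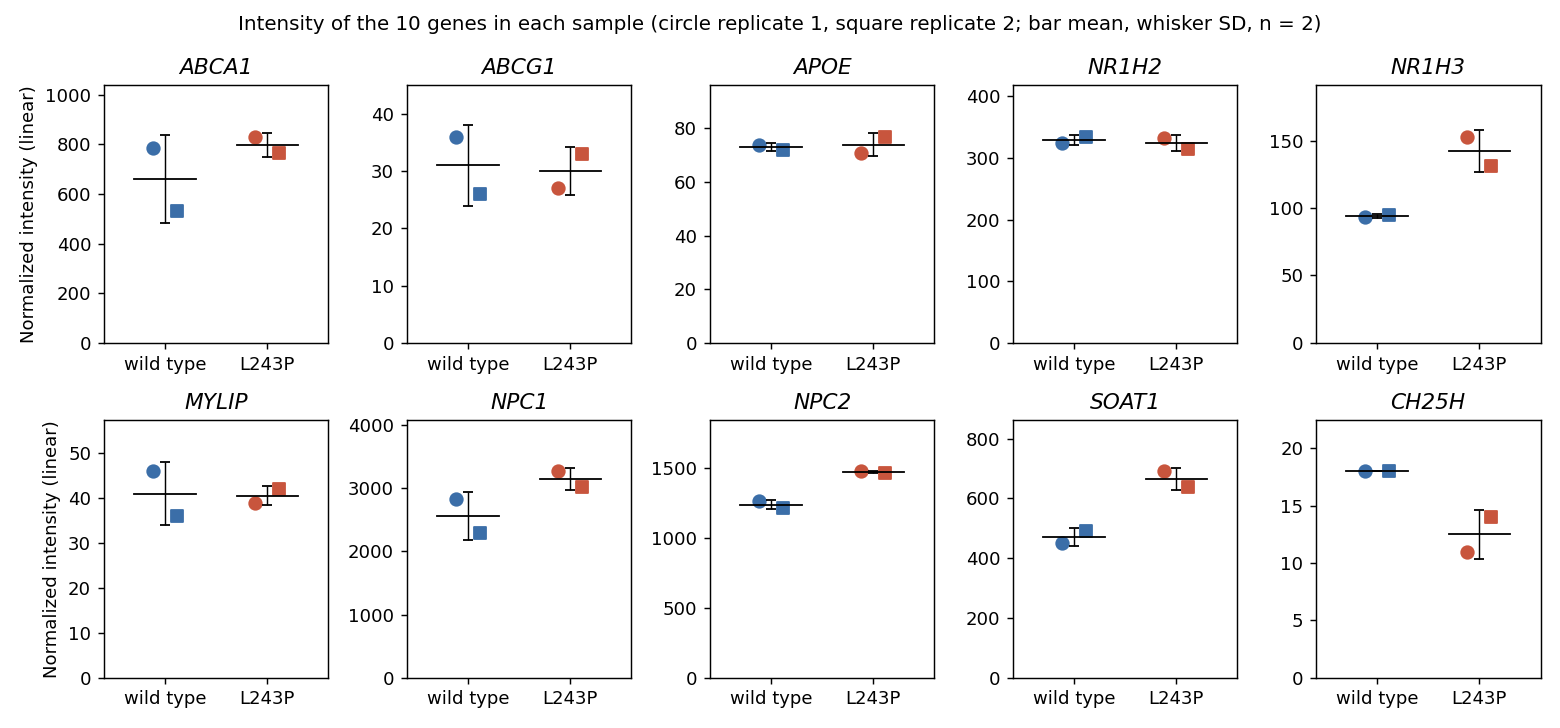
Normalized intensity (linear axis from 0) of each gene in the 2 wild-type samples (blue) and the 2 L243P samples (red), circles for replicate 1 and squares for replicate 2, with group mean and SD. SOAT1, NR1H3, NPC1 and NPC2 show both L243P points above both wild-type points, CH25H shows the reverse at intensities of 18 and less, and in ABCA1 only wild-type replicate 2, at 533, lies apart.

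Of the 2 efflux pumps, ABCA1 loads lipid onto lipid-poor apolipoproteins and ABCG1 onto more mature particles. ABCA1 was at 785 and 533 in wild-type replicates 1 and 2 and at 831 and 763 in L243P replicates 1 and 2 (means 659 ± 178 and 797 ± 48.1). The first wild-type sample lay between the L243P samples, so the groups overlapped and only the second was low. The log2 change was 0.30 (SE 0.18, 95% interval -0.14 to 0.74, limma adjusted p = 0.62). Without wild-type replicate 2 it was 0.02, and without wild-type replicate 1 it was 0.58. ABCG1 was dim, at 36 and 26 with wild type against 27 and 33 with L243P, and the groups overlapped. Its log2 change was -0.04 (SE 0.20, 95% interval -0.54 to 0.47). That interval holds changes as large as those of NPC1 and NPC2 in either direction.

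APOE, the apolipoprotein that takes up lipid exported by astrocytes, was at 74 and 72 with wild type against 71 and 77 with L243P. The wild-type values lay inside the L243P range. The log2 change was 0.02 (SE 0.12, 95% interval -0.28 to 0.32, limma adjusted p = 1).

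The 2 LXR genes differed in their values. NR1H3, which is itself an LXR target, was at 93 and 95 with wild type against 153 and 131 with L243P (means 94 ± 1.41 and 142 ± 15.6). Both L243P values were above both wild-type values, a 1.51-fold difference. The log2 change of 0.59 (SE 0.12, 95% interval 0.29 to 0.89) was the largest in absolute value of the 10 genes but did not pass the test (limma adjusted p = 0.13), and as large an absolute change was seen in 2.89% of all genes. NR1H2, the widely expressed form, was at 324 and 335 with wild type against 333 and 315 with L243P. Its groups overlapped, and its log2 change was -0.02 (SE 0.084, 95% interval -0.23 to 0.18, limma adjusted p = 0.96). The intervals of NR1H3 and NR1H2 did not overlap, but the difference between the 2 changes was not tested.

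MYLIP, an LXR target that marks lipoprotein receptors for degradation, was at 46 and 36 with wild type against 39 and 42 with L243P. Both L243P samples lay between the wild-type samples. The log2 change was -0.01 (SE 0.16, 95% interval -0.41 to 0.40, limma adjusted p = 1).

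NPC2 binds cholesterol inside the lysosome and hands it to NPC1 in the limiting membrane, and both are lost in forms of Niemann-Pick disease type C. NPC1 was among the bright probe sets of every array, at 2824 and 2288 with wild type against 3271 and 3020 with L243P (means 2556 ± 379 and 3145.5 ± 177). The groups did not overlap, although the wild-type samples lay further from each other than the nearest samples of the 2 groups. The log2 change was 0.31 (SE 0.12, 95% interval 0.02 to 0.59, limma adjusted p = 0.39), and it was 0.15 without wild-type replicate 2. NPC2 was at 1262 and 1215 with wild type against 1477 and 1468 with L243P (means 1238.5 ± 33.2 and 1472.5 ± 6.36). Its groups stood well apart for a small difference, with a log2 change of 0.25 (SE 0.070, 95% interval 0.08 to 0.42, limma adjusted p = 0.23). An absolute change as large as that of NPC2 was seen in 20.7% of all genes, and as large as that of NPC1 in 14%.

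SOAT1, which esterifies cholesterol in the endoplasmic reticulum, was at 450 and 492 with wild type against 691 and 640 with L243P (means 471 ± 29.7 and 665.5 ± 36.1). The groups did not overlap, with a 1.41-fold difference. The log2 change was 0.50 (SE 0.088, 95% interval 0.28 to 0.71), with the smallest p of the 10 genes (0.0013, limma adjusted p = 0.089). When the dimmer 50% of the rows were left out before the fit, SOAT1 passed (limma adjusted p = 0.033), in a setting that called 3.68% of the 11954 genes kept. After each array was centred on its median, which called 2.16% of all genes, none of the 10 passed. Wild-type replicate 1 was the lower of the wild-type samples here, unlike in ABCA1 and NPC1.

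CH25H makes 25-hydroxycholesterol, an oxysterol that activates LXR and holds back SREBP processing. It was very dim, at 18 in both wild-type samples and at 11 and 14 with L243P, where 28% and 29% of all probe sets on the wild-type arrays were equally bright or dimmer. Both L243P values were lower, a log2 change of -0.54 (SE 0.16, 95% interval -0.93 to -0.14, limma adjusted p = 0.27). With 16 added to the intensity before the log the change was -0.26 (limma adjusted p = 0.25). The table used here has no detection calls, so at this level background is not separated from transcript, and 1 unit of rounding is a sizeable part of the difference.

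**Figure D2:**
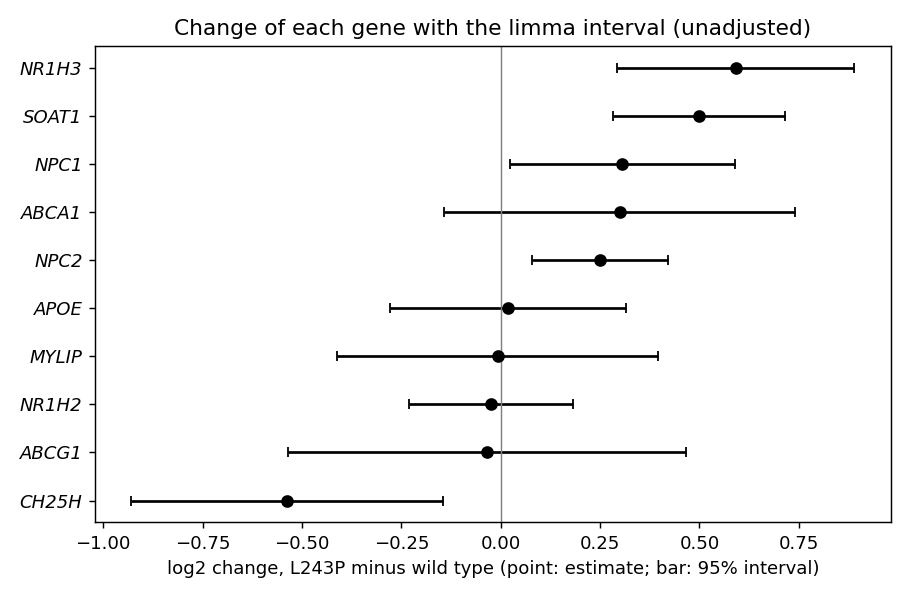
Log2 change of L243P over wild type for each gene, with the 95% interval of the limma fit, not adjusted for the number of genes. The intervals of NR1H3, SOAT1, NPC1 and NPC2 lie above 0 and that of CH25H below it, while those of ABCA1, APOE, MYLIP, NR1H2 and ABCG1 include 0.

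Several of these changes shifted when either wild-type array was left out. Wild-type replicate 2 was the lowest of the 4 samples for 5 of the 10 genes (ABCA1, ABCG1, MYLIP, NPC1 and NPC2), against 19.3% of all genes. It was also the lowest for 19 of 28 genes of sterol synthesis and SREBP control (67.9%). The lowest sample must be a wild-type one where both L243P samples were higher, as in NPC1, NPC2 and 22 of the 28. The comparison with all genes therefore partly restates the group difference and does not by itself single out replicate 2. Without wild-type replicate 2 the log2 changes of ABCA1 and NPC1 were 0.02 and 0.15, and without wild-type replicate 1 they were 0.58 and 0.46. The groups did not overlap for 7 of the 10 genes without replicate 2, against 68.8% of all genes. Without replicate 1 they did not overlap for 9 of the 10, against 66.5%. With 2 wild-type samples, the values cannot tell which of them deviates. NR1H3, SOAT1 and NPC2 kept log2 changes of at least 0.22 whichever array was left out, with ranges of 0.48 to 0.70, 0.43 to 0.56 and 0.22 to 0.28, and that of CH25H ran from -0.71 to -0.36. ABCG1 and MYLIP took either sign.

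**Figure D3:**
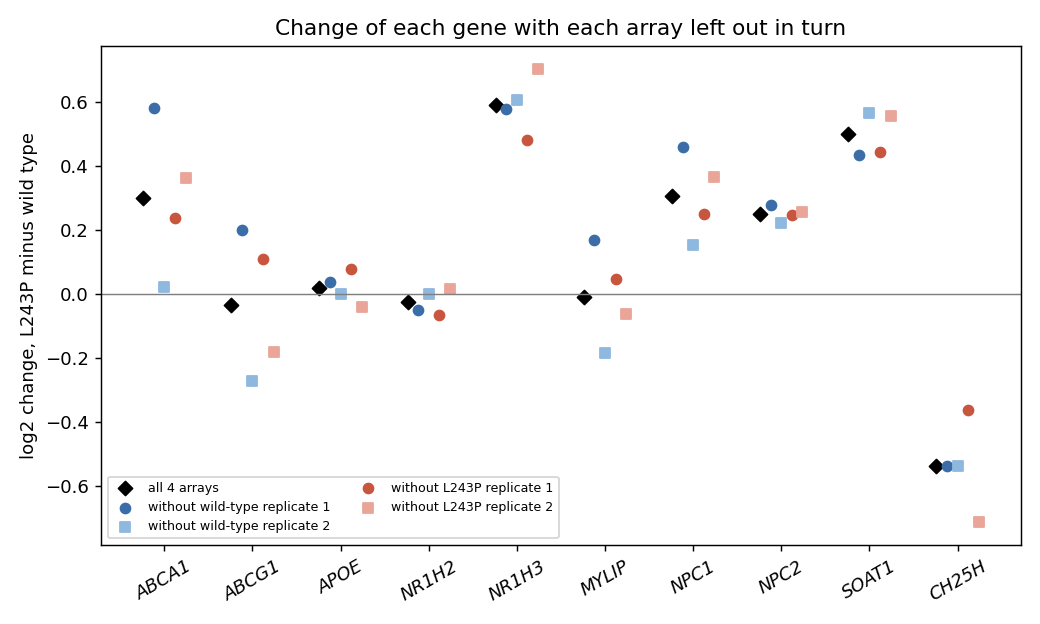
Log2 change of each gene in the fit of all 4 arrays (black) and with each array left out in turn (coloured). ABCA1 spans 0.02 to 0.58 depending on which wild-type array is kept, whereas SOAT1 spans 0.43 to 0.56 and NR1H3 0.48 to 0.70.

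Wider lists around each step were read from the same fit, by their counts and medians beside the median of all genes (-0.02). Among other LXR targets, 0 of 15 measured genes were called, with a median of 0.00, and 8 (53.3%) did not overlap between the groups (5 higher, 3 lower), against 38.0% of all genes. Their largest differences were in SCD, a fatty acid desaturase that is also a target of SREBP, and in TMEM135. SCD was at 1889 and 807 with wild type against 3127 and 3037 with L243P. Both L243P samples were higher, but in fold terms the wild-type samples differed more from each other than wild-type replicate 1 did from either L243P sample (log2 change 1.32, SE 0.36, limma adjusted p = 0.23). TMEM135 was at 84 and 70 with wild type against 113 and 93 with L243P (log2 change 0.42, SE 0.16, limma adjusted p = 0.39). SREBF1, another LXR target, was at 187 and 152 with wild type against 191 and 215 with L243P (log2 change 0.27, limma adjusted p = 0.53).

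Among partners and cofactors of LXR, 0 of 16 were called (median 0.06). Of the genes for RXR, the partner of LXR, RXRA was at 83 and 92 with wild type against 90 and 87 with L243P. Its groups overlapped (log2 change 0.02, limma adjusted p = 1). RXRB, read from the brightest of 3 probe sets, was brighter than RXRA in every sample. It was lower in both L243P samples, at 127 and 136 against 167 and 164 (log2 change -0.33, SE 0.10, limma adjusted p = 0.27). PPARG, a lipid-sensing receptor upstream of LXR in macrophages, was at 39 and 37 with wild type against 61 and 72 with L243P. Its coactivator PPARGC1A went the other way in value, from 117 and 127 to 81 and 75. The log2 changes were 0.80 (SE 0.14, limma adjusted p = 0.091) for PPARG and -0.65 (SE 0.12, adjusted p = 0.097) for PPARGC1A. Both passed when the dimmer 50% of the rows were left out (limma adjusted p = 0.036 and 0.045), where 3.68% of the genes kept were called. That filter used the mean of all 4 samples. PPARG was below the array median in both wild-type samples (medians 50 and 48) and above it in both L243P samples. Its pass in that setting therefore adds no support.

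Of 11 other efflux pumps, acceptors and lipoprotein enzymes, 0 were called (median -0.09). CLU, which encodes the lipid-carrying chaperone clusterin, was at 1255 and 1209 with wild type against 1620 and 1577 with L243P (log2 change 0.38, SE 0.070, limma adjusted p = 0.10). PLTP, which transfers phospholipid between lipoproteins, was at 1017 and 908 with wild type against 1252 and 1149 with L243P (log2 change 0.32, SE 0.091, limma adjusted p = 0.24). Groups did not overlap for either gene.

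Lysosomal and intracellular sterol transfer held a call: of 20 measured genes 1 fell and 0 rose (median 0.00), against 0.537% and 0.430% of all genes. SCARB2, a lysosomal membrane protein that carries glucocerebrosidase to the lysosome, fell from 733 and 847 to 481 and 471. The log2 change was -0.73 (SE 0.094, limma adjusted p = 0.045), opposite in sign to NPC1 and NPC2 in the same organelle. SCP2, a sterol carrier protein, had the largest difference of the list, at 39 and 56 with wild type against 138 and 99 with L243P (log2 change 1.32, SE 0.24, limma adjusted p = 0.091). TMEM97, a sterol-regulated partner of NPC1, was at 504 and 472 with wild type against 696 and 734 with L243P (log2 change 0.55, SE 0.080, limma adjusted p = 0.055). SCP2 and TMEM97 were named after their values were seen. Both passed, as higher in L243P, after each array was centred on its median and when the dimmer 50% of the rows were left out. These settings called 2.16% and 3.68% of the genes tested, and each gave 2 higher and 1 lower in the list. The filter used all 4 samples, and SCP2 was below the array median of 50 in wild-type replicate 1. LIPA, which frees cholesterol from lipoprotein esters there, was at 383 and 435 with wild type against 426 and 395 with L243P, with overlapping groups (log2 change 0.01, SE 0.098, limma adjusted p = 1). Lipoprotein uptake likewise held 1 gene that fell of 14 measured (0.537% of all genes fell) and 0 that rose (median -0.01). LRPAP1, a chaperone of lipoprotein receptors, fell from 405 and 443 to 232 and 261 (log2 change -0.78, SE 0.10, limma adjusted p = 0.045). SCARB2 and LRPAP1 were not called with limma's default prior, which called 0 genes in all. Fits without an array leave a single sample in a group and could not show whether these calls hold.

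Esterification, ester hydrolysis and lipid droplets held 0 calls among 21 measured genes (median -0.03). FITM2, which acts in droplet formation, was at 127 and 117 with wild type against 171 and 168 with L243P (log2 change 0.48, SE 0.10, limma adjusted p = 0.14). AUP1, a droplet protein, was at 860 and 896 with wild type against 683 and 698 with L243P (log2 change -0.35, SE 0.073, limma adjusted p = 0.13). Among oxysterol enzymes and the oxysterol receptor GPR183, 0 of 11 were called (median -0.06) and 8 had a mean below the median intensity of the arrays. HSD3B7, a bile acid synthesis enzyme acting on oxysterols, was at 127 and 124 with wild type against 162 and 150 with L243P (log2 change 0.31, SE 0.10, limma adjusted p = 0.31).

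The counterpart on the supply side was sterol synthesis and SREBP control, where 2 of 28 genes rose and 0 fell (median 0.41), while 0.430% of all genes rose. Groups did not overlap for 24 of the 28 (85.7%), against 38.0% of all genes and 5 of the 10 efflux, transport and esterification genes, whose median was 0.13. The difference between the 2 lists was not tested. The genes that rose were IDI1 and FDPS, enzymes of the isoprenoid steps. Their log2 changes were 0.998 (SE 0.12, limma adjusted p = 0.038) and 0.764 (SE 0.085, limma adjusted p = 0.033). Neither was called with limma's default prior, which called 0 genes in all. Fits without an array leave a single sample in a group and could not test these calls. SREBF2, the host gene of miR-33a, was at 217 and 131 with wild type against 253 and 247 with L243P (log2 change 0.57, SE 0.23, limma adjusted p = 0.42). INSIG1, which holds SREBP back when sterol is plentiful, was at 1005 and 601 with wild type against 1019 and 1013 with L243P (log2 change 0.39, SE 0.23, limma adjusted p = 0.61). In SREBF2 and INSIG1, as in ABCA1, wild-type replicate 2 lay far below the other 3 samples.

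**Figure D4:**
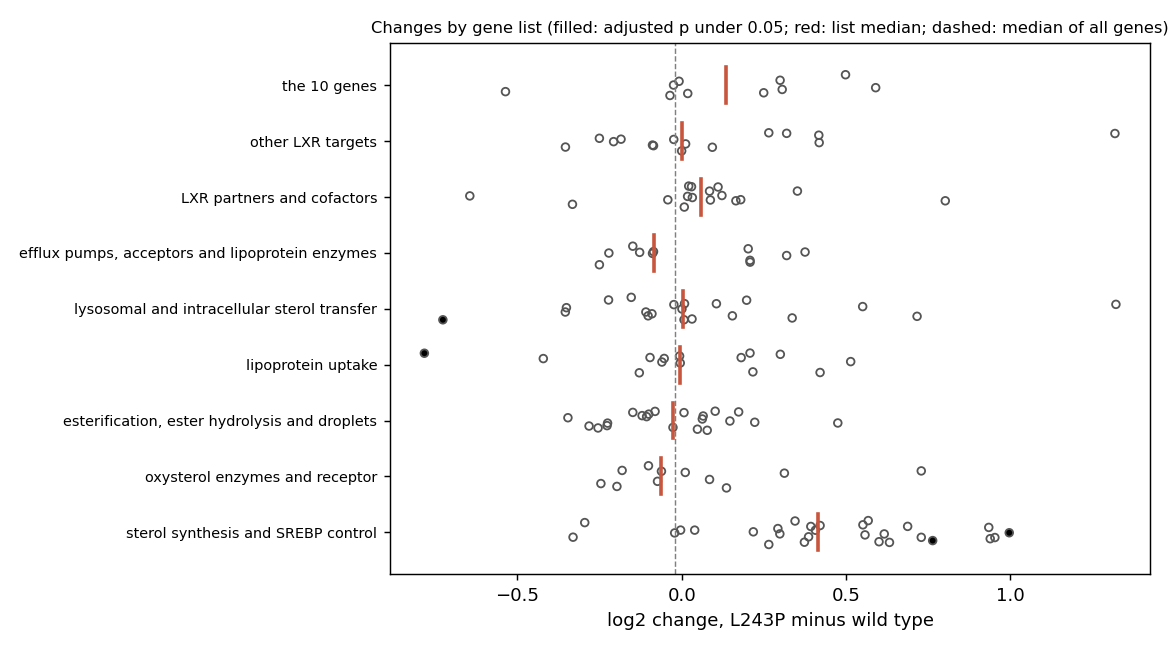
Log2 change of L243P over wild type for each measured gene of the 10 and of the wider lists, with filled points at adjusted p under 0.05, red bars at list medians and a dashed line at the median of all genes (-0.02). The 10 genes spread from -0.54 to 0.59 with no filled point, and the sterol synthesis list is centred at 0.41 with IDI1 and FDPS filled.

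In the authors' deposited table the signed fold change was 1.5 for NR1H3, 1.4 for SOAT1, 1.2 for ABCA1, NPC1 and NPC2 and -1.4 for CH25H, and 1 or -1 for the others. Its proportion of false positives (pfp), for which the authors used a limit of 0.15, was smallest for NR1H3 (0.321), SOAT1 (0.445) and CH25H (0.484) in the authors' deposited table, so none of the 10 genes was selected there either.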

How the data were processed

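According to the authors' deposited description, Rosetta Resolver was used for RMA background correction, quantile normalization and RMA summary of each probe set. The deposited intensities are linear and were rounded to whole numbers. RMA also appears in the submitters' processing notes, and its version is not given in the sources used. The signed fold change and the pfp are scores from the authors' deposited table, the latter from RankProdIt.

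Gene names were updated through a RefSeq table (GRCh38.p14), the brightest of several probe sets stood for a gene, and 27533 rows (19555 genes and the unnamed probe sets) were tested. Intensities were log2 transformed without further scaling or filter and fitted with limma 3.58.1 in R 4.3.3 (intensity trend, robust prior), with Benjamini-Hochberg adjustment over all rows. The same fit was also run on simulated data with independent rows, without deviations shared by an array. That run therefore does not bear on the low values of wild-type replicate 2. The fit with limma's default prior, which calls 0 genes on these rounded values (2785 at an unadjusted p under 0.05), and the other alternatives are given in the closing section. The 10 genes, the wider lists and the fit were chosen with earlier results of these data known. Besides the 10, the text names every called gene of a wider list (at most 3 in each direction) or, where none was called, the 2 with the largest change at a mean intensity of at least 50, and a fixed set (SREBF1, SREBF2, INSIG1, IDI1, RXRA, RXRB, LIPA and ANPEP), except some genes that are not reported here. The p-values reflect only how much 2 experiments with the same clone differed. The number of arrays, 4, limits the precision.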

Additional observations from a re-analysis of the deposited data

How the results depend on the processing

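No paired result is given in the report, because the labels do not say that equal replicate numbers share an experiment. With the replicate number as a block, 0 genes were called in all (1637 at an unadjusted p under 0.05), and the counts called became 0 for lysosomal transfer, 0 for lipoprotein uptake and 0 for sterol synthesis. Samples of equal number deviated in opposite directions (correlation -0.303 over 12100 rows), and a crossed pairing, added after seeing the data, also gave 0 calls in all and 0 in each of those 3 lists.

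Of the 10 genes, SOAT1 alone was called under any setting tried, without the dimmer 50% of the rows (0.50, adjusted p = 0.033, hence 1 gene called). After each array was centred on its median, NR1H2 had a log2 change of 0.0061 and MYLIP of 0.023, opposite in sign to the report. With an array left out, the ranges were 0.02 to 0.58 for ABCA1, -0.27 to 0.20 for ABCG1, -0.040 to 0.077 for APOE, -0.065 to 0.015 for NR1H2, -0.18 to 0.17 for MYLIP and 0.15 to 0.46 for NPC1. The groups then did not overlap for 7 to 9 of the 10, in settings where 60.2% to 68.8% of all genes did not overlap.

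Over all genes, centring gave 423 calls (229 higher, 194 lower) and leaving out the dimmer rows 440 (257 and 183), against 189 (84 and 105). The default prior and the trend without a robust prior gave 0 calls each (2785 and 2777 at an unadjusted p under 0.05), so 0 in lysosomal transfer, lipoprotein uptake and sterol synthesis, as did leaving out any array. Counts called after centring were 1 for LXR partners (PPARG), 3 for lysosomal transfer (SCARB2 lower, SCP2 and TMEM97 higher), 1 for oxysterol enzymes and 11 for sterol synthesis. Without the dimmer rows they were 2 for LXR partners, 1 for efflux (CLU), the same 3 genes for lysosomal transfer, 1 for oxysterol enzymes and 9 for sterol synthesis.

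List medians after centring were 0.031 for other LXR targets, 0.089 for LXR partners, 0.035 for lysosomal transfer and 0.0042 for esterification. Without the dimmer rows they were 0.29 for other LXR targets, 0.033 for LXR partners, 0.20 for efflux, 0.10 for lipoprotein uptake, 0.0072 for esterification and 0.31 for oxysterol enzymes. With 16 added to the intensity the LXR partners were at 0.029, and the log2 change of CH25H was -0.26. With an array left out, medians ranged from -0.031 to 0.0032 for other LXR targets, 0.044 to 0.092 for LXR partners, -0.17 to 0.11 for efflux, -0.067 to 0.025 for lysosomal transfer, -0.032 to 0.12 for lipoprotein uptake, -0.048 to 0.026 for esterification, -0.18 to 0.13 for oxysterol enzymes and 0.35 to 0.59 for sterol synthesis. The cause of these shifts was not tested, except that leaving out dim rows changes which genes enter. The deposited series matrix holds the same values, so it changed nothing.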
